A study of Mus musculus with 96 samples.

Results

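Chromatin accessibility was compared in hepatocyte nuclei of mice fasted for 3 h and of mice with free access to food taken at that same hour, with 4 female mice in each group. The comparison uses all 46832 listed hepatocyte peaks, of which 46827 were tested, and 8 of the 32 hepatocyte libraries of a series of 96 libraries. Fasting began at ZT12, the start of the dark and active phase of the mouse, so that both groups were taken at ZT15. The remaining groups used here for reference are fasted and fed mice at 8, 16 and 24 h (ZT20, ZT4 and ZT12), also with 4 mice each, and liver macrophage nuclei of mice fasted or fed for the same 3 h. All hepatocyte libraries come from HEP-INTACT mice, in which hepatocyte nuclei carry a tag by which they are pulled from whole liver on beads; all macrophage libraries come from MAC-INTACT mice. Fasted and fed animals carry the same tag, and the driver that restricts the tag to a cell type, the strain and the age are not given in the sources used here. A change in the share of nuclei that are open at a site and a change in openness per nucleus cannot be told apart in pooled nuclei.

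ATAC-seq uses a transposase that cuts and tags DNA where nucleosomes and other proteins leave it exposed, so that reads pile up at active promoters and enhancers. In the first hours without food insulin falls and glucagon and glucocorticoid signals gain weight in the liver. Hepatocytes then cease to make fat and cholesterol from dietary sugar, break down glycogen, and turn towards fatty acid oxidation, ketone production and glucose synthesis from amino acids. Known regulators include the glucocorticoid receptor, CREB, FOXO and C/EBP factors and PPARA on the fasted side, and SREBP1, ChREBP and LXR on the fed side. RNA polymerase III, which transcribes tRNA genes and other short RNAs, is restrained when nutrients are scarce, through mTORC1 and its target MAF1. Levels below are normalized reads per peak of 200 bp as deposited. A peak is called opened or closed where it was higher or lower in fasted mice at an adjusted p under 0.05 (limma, Benjamini-Hochberg over all tested peaks). Log2 changes carry an offset of 2 normalized reads and thus understate changes from a level near 0; folds are taken from them and carry the same offset. Peaks carry the name of the closest gene by annotated mm10 transcription start site (TSS). Closeness alone shows no regulation of that gene. Neighbouring peaks can overlap and share reads.

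The fasted libraries held 4288008 ± 1307432 reads in peaks, from 2976610 to 6098645, and the fed libraries 4547295 ± 275211, from 4353411 to 4940608 (SD, n = 4 each). Across peaks, Pearson's r of log2 levels was 0.921 to 0.957 between libraries of the same group, and peaks are not independent replicates. Fasted mouse 2, the library with the most reads, lay nearest to the fed mice, with r of 0.855 to 0.875 against them, and r was 0.795 to 0.85 for the other fasted mice. It was the fasted mouse closest to the fed level in 2938 of the 5292 opened peaks (55.5%) and in 1912 of the 4844 closed peaks (39.5%). Without this mouse 5490 peaks were opened and 4587 closed. By the mouse numbers in the labels, all fed mice of 3 h come before all fasted mice of 3 h. Fasted mice 1 and 3 carry the highest numbers, and fasted mice 2 and 4 lower ones. What the numbers stand for is not given. A difference that goes with them cannot be told apart from feeding. Over all peaks within 50 kb of a TSS 10.9% were opened and 9.69% closed, and the marker counts below are to be read against these shares. Of 15 hepatocyte marker genes 14 had peaks within 50 kb, 147 in all, and 25 of these were opened (17%) and 13 closed (8.84%). Of 18 Kupffer cell markers only Csf1r had a tested peak, with 18.6 to 24.5 reads in fasted and 28.2 to 33.4 in fed mice, and it was not called. Sinusoidal endothelial markers had 14 peaks from 7 of 14 genes with 2 opened and 1 closed, cholangiocyte markers 5 peaks from 3 of 8 genes with 1 closed, monocyte and neutrophil markers 7 peaks from 2 of 10 genes, and lymphocyte markers 9 peaks from 3 of 14 genes with 2 opened. Of 13 stellate cell and fibroblast markers only Reln had a peak, at its promoter, with 63.6, 51.5, 58.9 and 68.7 reads in fasted mice and 19.9, 10.3, 24.7 and 22.5 in fed mice. That peak was opened (log2 change 1.61 ± 0.30 (SE), adjusted p = 0.000167). A part of other cells in the results was not tested.

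Within 3 h of fasting 5292 peaks opened (11.3% of those tested) and 4844 closed (10.3%), while the median peak stood at a log2 change of -0.01. In 6127 peaks (13.1%) all 4 fasted mice were above all 4 fed mice, and in 5970 (12.7%) all 4 were below. Of the called peaks 4489 opened (84.8%) and 4042 closed (83.4%) had no overlap between the groups. Changes of at least 2-fold were seen in 1253 opened and 1093 closed peaks, of at least 4-fold in 126 and 74, and of at least 8-fold in 21 and 11. By the authors' deposited table a total of 5034 peaks were higher and 4559 lower at an adjusted p under 0.05, and 4767 and 4302 of them were called here in the same direction.

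Promoter peaks that were called had mostly opened, while distal peaks were called in both directions in like shares. Of 16351 peaks within 1 kb of a TSS 8.80% opened and 4.18% closed. Of 12932 peaks at 10 to 50 kb 13% opened and 14.1% closed, and at more than 50 kb 13.4% and 14% of 7091. By annotation, 5' UTR peaks were opened in 15.5% and closed in 4.30% of 581. Peaks at transcript ends ran the other way, with 12.5% of 857 opened and 18.3% closed, and 3' UTR peaks likewise, with 11.6% of 431 opened and 17.4% closed. No test of these shares was run, since neighbouring peaks are not independent.

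The largest opening lay at the promoter of Mt2, which encodes a metallothionein, a small protein that binds zinc and copper and is known to be induced by glucocorticoids and metals. Its peak at -138 bp from the TSS (mm10 chr8:94172380-94172580) held 104, 70.5, 97.1 and 71.1 reads in fasted mice and 1.93, 5.90, 4.11 and 1.45 in fed mice. Every fasted mouse was far above every fed mouse, and fed mice were close to no signal (log2 change 4.10 ± 0.40 (SE), 17.1-fold, adjusted p = 3.92e-09). The adjoining peak at 60 bp held 180, 144, 175 and 163 reads in fasted and 10.3, 12.5, 17.1 and 3.63 in fed mice. Downstream of Mt1, the neighbouring metallothionein gene, the peak at 4267 bp from its TSS held 163, 119, 160 and 122 reads in fasted and 34.7, 28.8, 32.2 and 31.9 in fed mice (log2 change 2.06 ± 0.17). These 3 metallothionein peaks thus opened in every fasted mouse with no overlap between groups.

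Igfbp1 encodes a binding protein for insulin-like growth factors that liver secretes when insulin is low. Its peak at 6188 bp from the TSS held 94.6, 28.0, 60.0 and 28.4 reads in fasted and 1.93, 1.48, 2.06 and 0 in fed mice (log2 change 3.90 ± 0.58). The fasted mice fell into a higher pair, mice 1 and 3, and a lower pair, mice 2 and 4, and both pairs stood above all fed mice. The higher pair also carries the highest mouse numbers. Cyp4a14, a PPARA target that hydroxylates fatty acids, had 61.9, 27.0, 33.8 and 21.3 reads at 11608 bp in fasted mice, against 0, 0.738, 2.06 and 0 in fed mice (log2 change 3.77 ± 0.42, adjusted p = 4.28e-08). A peak named for Tulp1 lies in an intron of Fkbp5 (chr17:28420223-28420423), a cochaperone gene known as a glucocorticoid receptor target, and held 70.1, 20.5, 67.6 and 34.0 reads in fasted and 0.642, 1.48, 2.06 and 2.18 in fed mice (log2 change 3.67 ± 0.56, adjusted p = 1.1e-05). Ddit4 encodes an inhibitor of mTORC1, and its peak at 30352 bp held 182, 52.5, 156 and 91.6 reads in fasted and 3.85, 7.38, 10.3 and 7.25 in fed mice (log2 change 3.63 ± 0.48). At each of these sites all fed mice were low, and fasted mouse 2 was the lowest or next to lowest of the fasted mice. Tested peaks needed a mean of at least 10 over all hepatocyte libraries. Peaks with a lower fed mean at 3 h thus passed only through groups where they are higher. Of the 203 tested peaks with a fed mean under 10 at 3 h, 183 opened (90.1%) and 0 closed. With a fed mean of 10 to 30, 24.8% opened and 4.52% closed. Low fed values at these sites are therefore no separate result.

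Zhx3, which encodes a zinc finger and homeobox protein, had 66.8, 30.0, 66.5 and 54.5 reads in fasted and 1.93, 3.69, 2.74 and 2.18 in fed mice at an intronic peak at 67675 bp. The peak at 87524 bp from Akr1d1, a reductase of bile acid and steroid hormone metabolism, held 170, 65.0, 163 and 138 reads in fasted and 8.34, 12.5, 11.7 and 8.70 in fed mice. Lpin1, a phosphatidate phosphatase that also acts as a coactivator in the nucleus, was opened 9.75-fold at 55994 bp and 7.94-fold at its promoter. With 1 peak taken per nearest gene and predicted genes passed over, the 10 largest openings without overlap of the groups also include sites near Ptprj and Rhobtb1, with log2 changes of 3.24 ± 0.51 and 3.18 ± 0.56. Further peaks of a gene already named, such as that of Mt2 at 60 bp (3.82 ± 0.31) and that of Cyp4a14 at 11183 bp (3.73 ± 0.37), opened more than some of these. Fasted mouse 2 was the lowest fasted mouse in 9 of the 10 peaks taken 1 per gene, all but that of Cyp4a14.

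The deepest closing lay near Car3, a carbonic anhydrase gene highly expressed in rodent liver. Its peak at 9159 bp held 0, 1.00, 0 and 1.58 reads in fasted mice and 73.2, 65.6, 56.9 and 60.2 in fed mice. The site was thus close to lost in all 4 fasted mice (log2 change -4.68 ± 0.40, 25.7-fold, adjusted p = 5.62e-10). The Car3 promoter peak closed as well, with 14.7, 33.5, 7.64 and 18.2 reads in fasted and 115, 111, 100 and 112 in fed mice (log2 change -2.60 ± 0.30). Angptl8 encodes a secreted inhibitor of lipoprotein lipase that insulin induces after meals, and its peak at 2591 bp lies within Dock6, in whose intron Angptl8 sits. That peak held 1.63, 2.5, 1.09 and 6.32 reads in fasted and 79.6, 93.7, 65.1 and 96.5 in fed mice (log2 change -4.23 ± 0.43).

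A peak named for Dus1l at -7539 bp also has Fasn, the fatty acid synthase gene, within 20 kb. It held 3.26, 1.00, 3.27 and 3.95 reads in fasted and 75.7, 33.2, 43.9 and 68.2 in fed mice (log2 change -3.53 ± 0.38, adjusted p = 2.47e-08). Cyp7a1, whose enzyme starts the main route from cholesterol to bile acids, had 0.815, 3.50, 1.09 and 1.58 reads at 10809 bp in fasted and 30.8, 27.3, 28.1 and 26.8 in fed mice. Among promoters, that of Scd1, a desaturase that yields monounsaturated fat, held 14.7, 16.5, 20.7 and 15 reads in fasted and 136, 85.6, 101 and 121 in fed mice (log2 change -2.58 ± 0.23). Ccdc69, which encodes a coiled-coil protein, had 7.34, 7.50, 5.45 and 3.16 reads at 436 bp in fasted and 87.3, 22.1, 48.0 and 72.5 in fed mice. All of these groups were apart, and the spread was wider among fed than among fasted mice at Dus1l and Ccdc69, where fed mouse 2 was lowest. With 1 peak taken per nearest gene and predicted genes passed over, 5 more sites complete the 10 deepest closings without overlap of the groups. Of these 4 lay at tRNA genes and are given with that group, and 1 lay near Csmd1 (log2 change -2.78 ± 0.44). Further peaks of a gene already named, such as that of Angptl8 at 2416 bp (-3.92 ± 0.36), closed more than some of these.

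**Figure D1:**
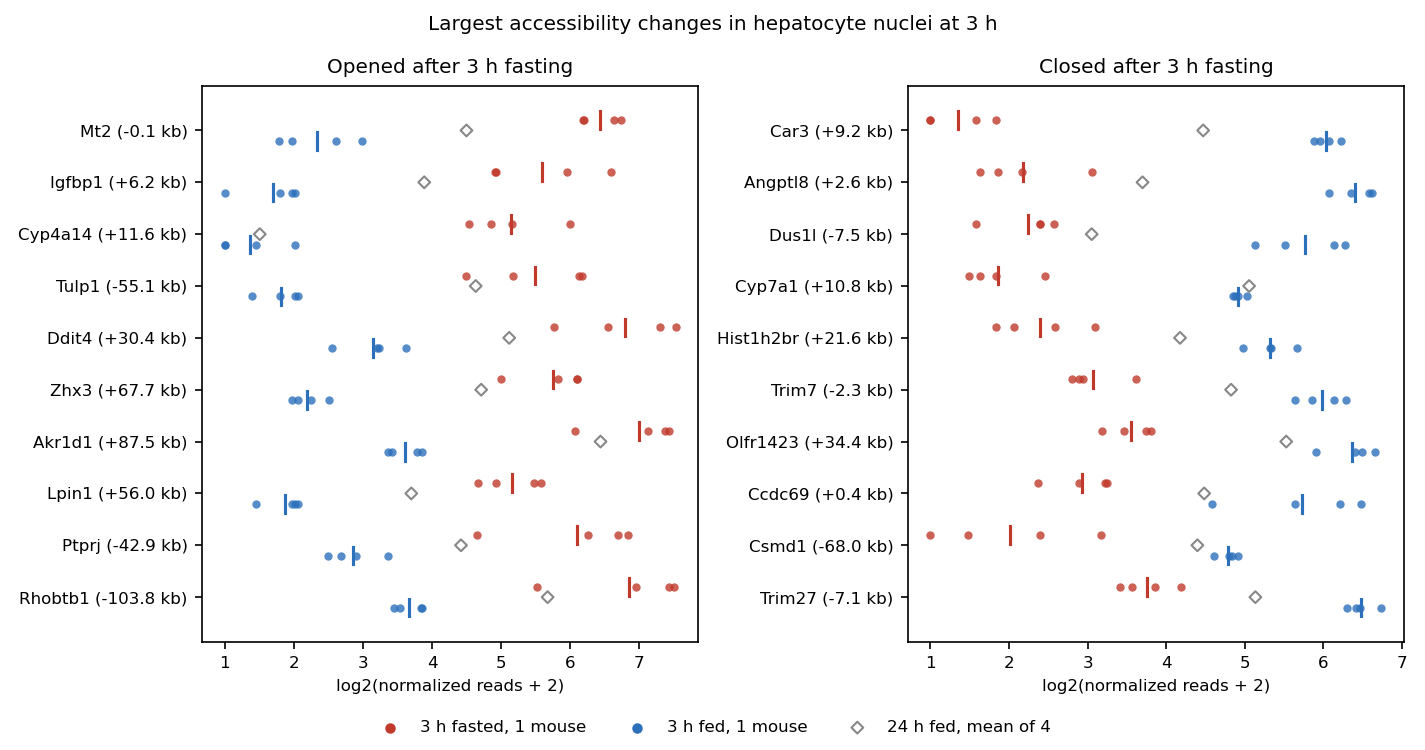
Log2 of normalized reads plus 2 at the 10 opened (left) and 10 closed (right) peaks of largest change without overlap of the groups. Only 1 peak was taken per nearest gene and predicted genes were passed over, so that peaks not shown can change more than some shown. Peaks are named by nearest gene and distance to its TSS in kb. Each red point is 1 fasted mouse and each blue point 1 fed mouse at 3 h (n = 4 each), vertical bars are group means, and open diamonds give the mean of 4 fed mice at 24 h. Red and blue points do not overlap in any row. Among closed peaks the diamonds of Angptl8 and Dus1l lie nearer the fasted points, and those of Cyp7a1 and Csmd1 lie near the fed points.

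A few called promoters are shown by their sequence, taken from RefSeq promoter windows of GRCm38.p6 that start 250 bases before the TSS and end 50 after it. Mt2 is given for the largest promoter opening, Plin4 and Btg3 as opened promoters of different size, and H1f3 as a closed one. Plin4 encodes a lipid droplet coat protein and Btg3 an antiproliferative factor, and H1f3 (listed as Hist1h1d) encodes a linker histone. The Mt2 window lies at chr8:94172368-94172667 on the plus strand, that of Plin4 at chr17:56109733-56110032 on the minus strand, that of Btg3 at chr16:78377132-78377431 on the minus strand, and that of H1f3 at chr13:23554782-23555081 on the plus strand. Capitals mark, in Mt2, TGCACNC and TGCGCNC (parts of the metal response elements that MTF1 binds) and TGANTCA (the AP-1 site), and in the other promoters CCAAT (the NF-Y box), each on either strand.
Mt2: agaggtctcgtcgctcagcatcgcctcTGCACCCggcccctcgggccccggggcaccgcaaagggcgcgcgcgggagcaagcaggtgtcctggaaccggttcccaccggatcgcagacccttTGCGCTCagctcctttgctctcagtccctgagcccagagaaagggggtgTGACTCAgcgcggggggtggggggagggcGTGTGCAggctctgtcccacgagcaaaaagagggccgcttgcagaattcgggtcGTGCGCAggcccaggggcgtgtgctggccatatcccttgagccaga
Plin4: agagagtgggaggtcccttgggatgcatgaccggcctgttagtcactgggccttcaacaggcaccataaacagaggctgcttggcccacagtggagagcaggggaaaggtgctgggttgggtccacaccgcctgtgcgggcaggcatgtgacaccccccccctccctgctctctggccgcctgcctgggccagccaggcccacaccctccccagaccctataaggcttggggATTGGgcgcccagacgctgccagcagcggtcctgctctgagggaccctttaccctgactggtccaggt
Btg3: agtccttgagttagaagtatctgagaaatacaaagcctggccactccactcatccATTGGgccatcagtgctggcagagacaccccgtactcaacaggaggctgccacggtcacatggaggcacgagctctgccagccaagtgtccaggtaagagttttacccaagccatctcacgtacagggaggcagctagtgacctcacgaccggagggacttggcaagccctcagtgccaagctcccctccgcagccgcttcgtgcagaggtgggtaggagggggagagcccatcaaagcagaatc
H1f3: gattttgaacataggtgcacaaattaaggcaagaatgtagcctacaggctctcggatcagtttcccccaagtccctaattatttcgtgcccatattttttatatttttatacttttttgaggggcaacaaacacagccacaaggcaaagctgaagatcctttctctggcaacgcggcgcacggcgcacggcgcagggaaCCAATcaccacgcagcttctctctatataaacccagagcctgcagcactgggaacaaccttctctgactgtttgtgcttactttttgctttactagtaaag

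Plin4 held 160, 104, 142 and 131 reads at its promoter peak in fasted and 25.0, 29.5, 21.3 and 23.9 in fed mice, a log2 change of 2.33 ± 0.22 (adjusted p = 2.52e-09). Btg3 held 61.1, 18.5, 56.7 and 53.7 in fasted and 8.34, 11.8, 9.60 and 9.43 in fed mice, with fasted mouse 2 well below the others but above all fed mice (log2 change 1.95 ± 0.32). The peak of Hist1h1d at -3 bp held 17.1, 12.0, 8.73 and 15 in fasted and 52.0, 71.5, 42.5 and 46.4 in fed mice (log2 change -1.86 ± 0.22, adjusted p = 1.36e-07). Other promoters with changes of similar or larger size were those of Lpin1, with 134, 64.5, 111 and 104 reads in fasted and 13.5, 12.5, 12.3 and 6.53 in fed mice, and of Ppp1r3g, a subunit that targets protein phosphatase to glycogen, with 63.6, 30.5, 56.7 and 30.8 in fasted and 4.49, 9.59, 8.91 and 4.35 in fed mice. Haptoglobin (Hp) opened by 1.87 ± 0.26 at -729 bp and Pdxp, a phosphatase of vitamin B6, closed by -1.98 ± 0.32 at 959 bp on the log2 scale. Both groups stood apart in each of these promoters.

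Letters of 17 motifs, not all of them listed here, were counted on both strands of RefSeq promoter windows. Of these windows 10636 lie under a tested peak, 599 of them under an opened and 393 under a closed peak. CCAAT was in 25.0% of the opened and 49.9% of the closed windows, against 40.2% of all windows under a peak and 37.4% of the 32851 windows of the table outside chromosome 18, which was left out. TCACNCCAC, a site of SREBP factors, was in 0.668% of opened and 2.80% of closed windows, with 1.10% under all peaks. TTCCNGGAA, the STAT5 site, was in 1.17% of opened and 2.80% of closed windows, with 1.34% under all peaks, and CACGTG, an E-box of basic helix-loop-helix factors, in 13.4% and 6.62%, with 10.9% under all peaks. TGCGCNC was in 29.2% of opened and 15.5% of closed windows, with 28.9% under all peaks and 15.4% of the table, TGCACNC in 12.9% and 17.8%, with 12.6% under all peaks and 12.6% of the table, and TGANTCA in 6.18% and 4.33%, with 4.44% under all peaks and 7.81% of the table. The CREB site was in 3.51% of opened and 2.80% of closed windows, with 3.59% under all peaks. The forkhead site, shared by FOXO and FOXA, was in 3.67% and 3.31%, with 2.76% under all peaks. The C/EBP palindrome was in 0.167% and 0.254%, with 0.357% under all peaks. The site shared by PPAR and HNF4A was in 0 opened and 0 closed windows. The glucocorticoid receptor palindrome was in 0 windows under a peak, so its shares could not be compared. A match of letters is a description and not a site, base composition was not matched, and no test was run.

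Near genes that answer to glucocorticoids and genes of fasting metabolism many more peaks opened than closed. All gene lists were chosen with earlier results of these data known, so that their shares are a description only. Of 337 peaks within 50 kb of glucocorticoid response genes 116 opened (34.4%) and 13 closed, with a median log2 change of 0.25. For all 39736 peaks within 50 kb of a TSS 10.9% opened and 9.69% closed, with a median of -0.01, and the lists below are to be read against these shares. KLF and C/EBP factor genes had 35 opened and 3 closed of 112 peaks, among them Klf9 at -6212 bp (log2 change 1.32 ± 0.15), Klf10 (1.76 ± 0.24) and Klf13 (1.31 ± 0.19), zinc finger factors of which Klf9 is a glucocorticoid target. Gluconeogenesis and glycogen genes had 63 opened and 10 closed of 257, with Gys2, the liver glycogen synthase, at 74.2, 63.5, 74.2 and 56.9 reads in fasted and 19.3, 23.6, 23.3 and 21.0 in fed mice. Fatty acid oxidation and ketogenesis genes had 67 opened and 9 closed of 280, and amino acid catabolism and urea cycle genes 97 opened and 13 closed of 406. Within the last group a peak of Mccc2, a subunit of the leucine-degrading methylcrotonyl-CoA carboxylase, opened by 1.18 ± 0.17; it lies in an intron of Bdp1, which encodes a subunit of the polymerase III initiation factor TFIIIB.

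Near nutrient and stress signalling genes, too, more peaks opened than closed. Of the 113 peaks on the mTORC1 and integrated stress response list 26 opened and 4 closed, including Chac1, a glutathione-degrading target of ATF4, with 125, 98.0, 121 and 139 reads in fasted and 19.3, 18.4, 25.4 and 15.2 in fed mice. Flcn, which encodes folliculin, a regulator of lysosomal mTORC1 signalling, held 50.5, 50.5, 51.3 and 51.3 reads at its promoter in fasted and 22.5, 20.7, 17.8 and 26.8 in fed mice. Insulin signalling and FOXO genes had 42 opened and 9 closed of 197, with Igfbp2 at 1.38 ± 0.20. Autophagy and lysosome genes had 30 opened and 13 closed of 159, with Lamp2, a lysosomal membrane protein, at 1.14 ± 0.20, and immediate early and AP-1 genes 22 and 6 of 140, with Fos at 1.51 ± 0.20 and Maff at 1.44 ± 0.23. The glucagon and cAMP list had 13 opened and 8 closed of 124, shares of 10.5% and 6.45% that are near or below those of all peaks. Its called peaks included Nr4a1, an orphan nuclear receptor gene induced by cAMP (1.13 ± 0.18), Adcy9, an adenylyl cyclase (1.06 ± 0.24), and Pde4a, a phosphodiesterase that degrades cAMP (-1.24 ± 0.25).

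Control points of fuel use had peaks called in both directions. Pyruvate dehydrogenase control had 11 opened and 5 closed of 57 peaks. Pdp2, the phosphatase that reactivates the complex, closed with 34.2, 30.5, 42.5 and 24.5 reads in fasted and 124, 71.5, 95.3 and 127 in fed mice (log2 change -1.60 ± 0.16). Mpc1, a subunit of the mitochondrial pyruvate carrier, opened by 0.85 ± 0.18, and Pdk4, a kinase that inactivates the complex, by 1.56 ± 0.15 at -13646 bp. Lipid droplet and lipolysis genes had 16 opened and 11 closed of 94, with the lipases Pnpla2 (1.72 ± 0.26) and Mgll (1.37 ± 0.24) among the opened. Metal handling had 23 opened and 17 closed of 125, and beside the metallothioneins Slc39a4, a zinc importer, opened by 0.74 ± 0.12. Acute phase and complement genes had 27 opened and 12 closed of 170, with the receptors Il1r1 (2.23 ± 0.34) and Il6ra (1.85 ± 0.29) opened. Xenobiotic and haem metabolism had 30 opened and 9 closed of 157, with Por, the electron donor of cytochromes P450, at 2.06 ± 0.32 and Cyp2b9 at -2.07 ± 0.32. Circadian clock genes had 27 opened and 11 closed of 176, with Nr1d1 (0.90 ± 0.12) and Dbp (0.99 ± 0.16) opened and Per2 (-1.13 ± 0.18) closed.

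Near genes of fat and sterol synthesis more peaks closed than opened. Of the 229 peaks of the fatty acid and triglyceride synthesis list 34 opened (14.8%) and 61 closed (26.6%), and at its 54 promoter peaks 4 were opened and 21 closed. The sterol synthesis and SREBP list had 15 opened and 42 closed of 164, and 4 opened and 18 closed of 56 promoter peaks. Insig1, which holds SREBP precursors in the endoplasmic reticulum, held 8.97, 7, 8.73 and 7.90 reads at 8113 bp in fasted and 80.2, 33.9, 63.1 and 61.7 in fed mice (-2.55 ± 0.29). Within the sterol list Abcg8, a sterol exporter, opened (1.5 ± 0.21). Glycolysis and carbohydrate response genes had 8 opened and 16 closed of 110, where Pklr, the liver pyruvate kinase, is the nearest gene of a closed peak in an exon of Hcn3 (-2.13 ± 0.28) and Txnip, an arrestin that limits glucose uptake, had an opened one (0.84 ± 0.16).

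Of the 183 peaks of the growth hormone and STAT5 list 18 opened and 37 closed, with Onecut1, a liver transcription factor, closed (-1.54 ± 0.25) and Cux2, a repressor of male-biased genes in female liver, opened (1.84 ± 0.29). Hepatocyte lineage factors had 9 opened and 24 closed of 204. At Hnf4a, the nuclear receptor that maintains hepatocyte identity, the peak at 12205 bp held 42.4, 28.0, 29.5 and 41.9 reads in fasted and 61.6, 66.4, 60.3 and 74.0 in fed mice (-0.87 ± 0.16). At Cebpa the peak at -2638 bp held 48.9, 95.5, 66.5 and 71.1 in fasted and 137, 117, 105 and 133 in fed mice (-0.82 ± 0.16). Interferon and antigen presentation genes had 8 opened and 18 closed of 93, with Irf1 (-1.14 ± 0.24) and B2m (-0.82 ± 0.16) closed and Irf2 (1.95 ± 0.29) opened. Bile acid genes had 17 opened and 18 closed of 166, and lipoprotein and lipase genes 25 and 31 of 191. Cytosolic ribosomal protein genes had 2 opened and 6 closed of 120, the smallest share called among the 25 lists.

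**Figure D2:**
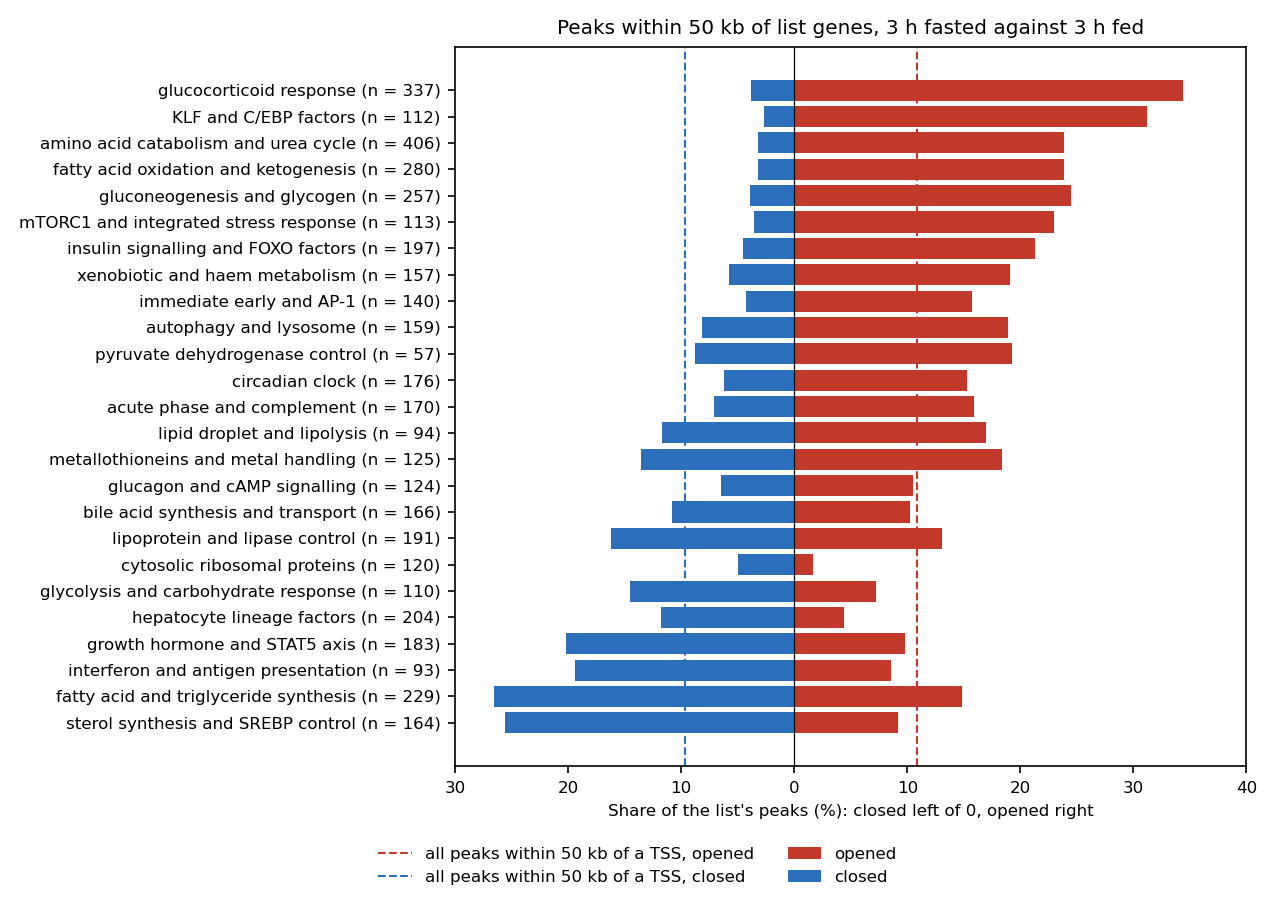
Percent of each list's tested peaks within 50 kb of a list gene's TSS that opened (red, to the right) or closed (blue, to the left) after 3 h of fasting, with the number of peaks in brackets. Dashed lines give the shares over all 39736 peaks within 50 kb of a TSS, 10.9% opened and 9.69% closed. The glucocorticoid list reaches 34.4% opened and the fatty acid and triglyceride synthesis list 26.6% closed. The lists were chosen with earlier results of these data known.

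At some genes many peaks of the neighbourhood opened or closed, and the genes below were picked by the number of such peaks and not by their share. Of 12147 genes with a tested peak within 100 kb of their TSS, 2477 had an opened and 2499 a closed peak, and 488 had both. At least 5 peaks opened at 131 genes and at least 5 closed at 58. Zbtb16, a zinc finger factor gene induced by glucocorticoids, had 19 of 23 peaks opened, 3 of them within 1 kb of the TSS, with log2 changes of up to 1.88. Lpin1 had 15 of 23 opened and 1 closed, and the closed peak at -1.83 kb (log2 change -0.76) lay between opened ones at -7.68 kb (1.10) and -0.34 kb (2.99). Klf9 had 14 of 15 opened, Slc25a33, a mitochondrial pyrimidine carrier, 14 of 20, Errfi1, an inhibitor of EGF receptor signalling, 14 of 27, and Clmn, a calponin-like protein gene, 13 of 14.

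Among closed loci Angptl8 had 13 of 16 peaks closed, Paqr9, a membrane receptor gene, 12 of 16, the septin gene Sept9 12 of 26, Scd1 10 of 14 and Cyp7a1 9 of 12. Insig1 had 11 of 24 closed and 1 opened. The opened one lay at 0.64 kb from the TSS with a log2 change of 1.27, while the promoter peak at -0.2 kb closed by -0.28 and the cluster at 7.73, 8.11 and 8.61 kb closed by -2.55, -2.55 and -2.05. Opposed changes within a locus were seen elsewhere: 13 genes had at least 3 opened and at least 3 closed peaks. Rasgef1b had 7 opened and 4 closed of 13, with log2 changes between -1.97 and 2.24, Prkag2, a subunit of AMP-activated kinase, 5 and 4 of 28, Vegfa 3 and 6 of 23, and Sik1, a salt-inducible kinase, 3 and 3 of 25. Rnase4 had 3 opened and 6 closed of 13 peaks, all within 8235 bp of its TSS.

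**Figure D3:**
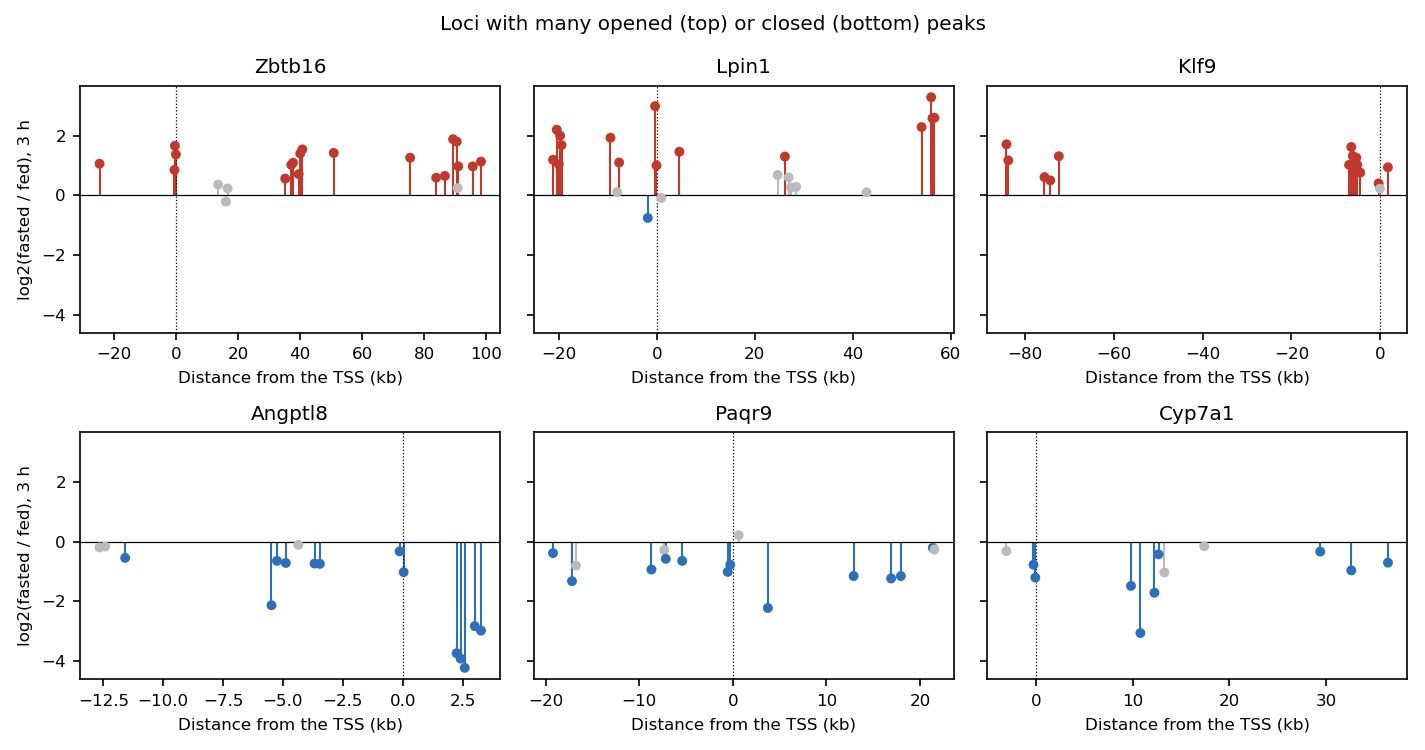
Log2 change of fasted over fed mice at 3 h for each tested peak within 100 kb of 6 genes, against distance to the TSS in kb; red points are opened peaks, blue closed and grey not called. Zbtb16, Lpin1 and Klf9 (top) show opened peaks across the locus, 19, 15 and 14 of them, and Angptl8, Paqr9 and Cyp7a1 (bottom) show 13, 12 and 9 closed peaks.

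As a class, tRNA genes were less accessible in fasted than in fed mice at 3 h. The class was picked out after the values were seen, because tRNA genes lay at 4 of the 10 deepest closings when 1 peak is taken per nearest gene. Of 230 peaks within 200 bp of a tRNA gene of the RefSeq annotation (GRCm38.p6) 120 closed (52.2%) and 1 opened, and 55 of the closed fell at least 2-fold; over all tested peaks 10.3% closed. Their median log2 change was -0.49, against -0.01 for all peaks. Their reads summed to 12250, 9785, 11010 and 9796 in the 4 fasted mice and to 15110, 15910, 13850 and 15400 in the 4 fed mice. Each fasted mouse was below each fed mouse, with means of 10710 ± 1177 and 15068 ± 876 (SD, n = 4 each), while the median of all peaks was 53.8, 50.0, 53.5 and 51.3 reads in fasted and 52.0, 51.6, 51.4 and 51.5 in fed mice.

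Deep tRNA closings were seen at isoleucine, glycine and phenylalanine tRNA genes. The peak at n-TIaat11 (chr13:21855203-21855403, nearest gene Hist1h2br) held 6.52, 4, 2.18 and 1.58 reads in fasted and 37.9, 38.4, 29.5 and 48.6 in fed mice (log2 change -2.93 ± 0.40). That at n-TGacc1 (chr11:48823731-48823931, nearest gene Trim7) held 5.71, 5, 5.45 and 10.3 in fasted and 68.7, 47.9, 56.2 and 76.2 in fed mice (-2.92 ± 0.27, adjusted p = 2.37e-09). That at n-TFgaa6 (chr19:12002273-12002473, nearest gene Olfr1423) held 11.4, 9, 12.0 and 7.11 in fasted and 98.8, 82.6, 58.3 and 88.5 in fed mice (-2.82 ± 0.24, adjusted p = 5.62e-10). At these 3 genes the highest fasted mouse was several times below the lowest fed mouse. n-TLcaa4 (nearest gene Trim27), n-TSaga8 (Zfp184) and n-TSgct4 (Hist1h4h), which code for leucine and serine tRNAs, followed with -2.72 ± 0.25, -2.63 ± 0.30 and -2.39 ± 0.28.

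The tRNA difference at 3 h was sharp in position and broad across amino acids. Of 173 peaks that overlap a tRNA gene 109 closed (63.0%, median log2 change -0.69), of 57 peaks without overlap but under 200 bp away 11 closed (19.3%), of 33 peaks from 200 to under 500 bp away 5 closed (15.2%), and of the 44606 peaks farther than 200 kb 10.2% closed. All 20 amino acid letters had at least 1 closed peak, from 13 of 21 for leucine and 10 of 14 for alanine to 1 of 6 for tryptophan. Of the 42 tRNA peaks on chromosome 13, which carries the large tRNA cluster among the histone genes, 34 closed (81.0%, median -1.25), and of the 188 on other chromosomes 86 closed (45.7%, median -0.40). Of 57 tRNA peaks within 1 kb of a TSS 18 closed, and of 173 farther away 102. The RefSeq table lists 408 tRNA genes, and 168 of them were nearest to a tested peak within this distance, 110 with a closed one. tRNA genes come in near-identical copies, and reads that map to several copies may have been placed among them in a way not given in the sources used here.

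The tRNA difference did not follow fasted mouse 2 in the way the opened peaks did. Against the fed mean the median log2 difference of tRNA peaks was -0.27, -0.60, -0.45 and -0.66 in fasted mice 1 to 4, while that of opened peaks was 0.82, 0.56, 0.78 and 0.69. Without fasted mouse 2, 107 tRNA peaks closed. The library numbers in the labels fall into 3 sets that each hold fasted and fed mice, and the median tRNA difference within them was -0.47, -0.31 and -0.68, with 200, 172 and 208 of the 230 peaks lower in fasted mice; the later 2 sets hold 1 mouse per group and allow no test of their own.

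Peaks at small nuclear RNA (snRNA) genes closed as well. Of 55 peaks within 200 bp of an snRNA gene 29 closed (52.7%, median log2 change -0.47), and their reads summed to 2321 ± 212 in fasted and 3370 ± 261 in fed mice (SD, n = 4 each). At Rnu5g, a U5 snRNA gene of the spliceosome (nearest listed gene Parp16), the peak held 12.2, 6, 3.27 and 11.1 reads in fasted and 55.2, 77.4, 44.6 and 61.7 in fed mice (log2 change -2.69 ± 0.27). A promoter peak of Alyref2 that lies at an annotated snRNA gene held 6.52, 8.00, 3.27 and 1.58 in fasted and 20.5, 26.6, 24.0 and 32.6 in fed mice (-2.12 ± 0.28). Most snRNA genes are read by RNA polymerase II, U6 being read by polymerase III, and several exist in many copies. Promoter peaks of histone genes, many of which sit in the same cluster of chromosome 13, had 13 closed (25.5%) and 0 opened of 51. Of the 48 that lie over 1000 bp from a tRNA gene 11 closed (22.9%), beside 4.18% of all peaks within 1 kb of a TSS.

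**Figure D4:**
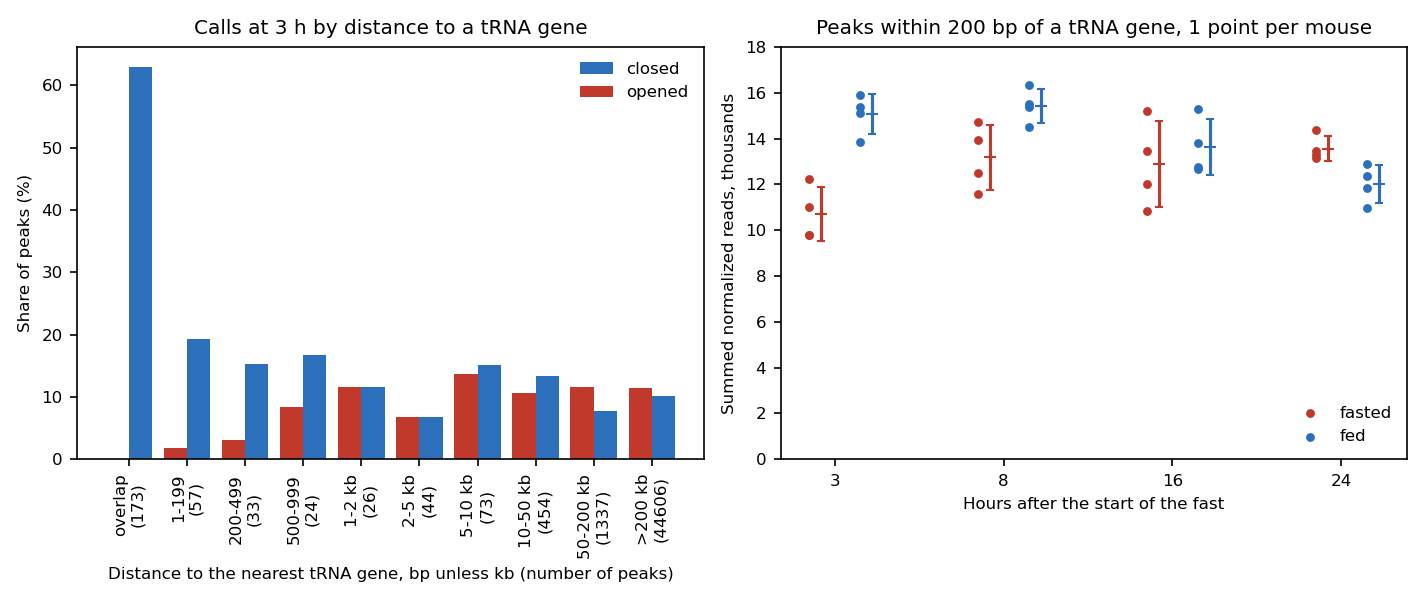
Left, percent of peaks that opened (red) or closed (blue) after 3 h of fasting by distance to the nearest tRNA gene, with the number of peaks in brackets; 63.0% of peaks that overlap a tRNA gene closed. Right, summed normalized reads of the 230 tRNA peaks, divided by 1000, for each fasted (red) and fed (blue) mouse at 3, 8, 16 and 24 h with mean ± SD (n = 4 each); at 3 h all 4 fasted mice lie below all 4 fed mice, and fed mice are lower at 24 h than at 3 h.

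Fed mice at ZT12, the hour at which the fast began, were set beside both 3 h groups. The fed mice of 3 h had free access to food in the first 3 h of the night, and their intake is not given. Both 3 h groups were taken at ZT15, so that hour of day cannot be told apart from feeding or fasting in these comparisons. Between fed mice at 3 h and fed mice at 24 h 1134 peaks were higher (2.42%) and 1507 lower (3.22%), and between fasted mice at 3 h and fed mice at 24 h 1977 were higher (4.22%) and 2085 lower (4.45%). Single mice weighed on these counts: between the fed groups they were 556 and 929 without fed mouse 1 of 3 h, 589 and 946 without fed mouse 2 and 651 higher without fed mouse 4, and against fed mice at 24 h 672 and 1008 without fasted mouse 1 and 994 and 1273 without fasted mouse 3. These comparisons share mice, so that they are given as values side by side. Chac1 averaged 121 ± 17 reads in fasted and 19.6 ± 4.23 in fed mice at 3 h, and 111 ± 8.74 in fed mice at 24 h (SD, n = 4 each). Fasted mice at 3 h and fed mice at 24 h differed there by 0.11 ± 0.24 on the log2 scale (adjusted p = 0.837), while fed mice at 3 h were below those at 24 h by -2.41 ± 0.24. Gys2 (67.2, 21.8 and 72.4 in the same order), Pck1, the rate-limiting gluconeogenic enzyme (159, 29.2 and 163), and Abcg8 (42.6, 13.7 and 43.2) were likewise low in the fed mice of 3 h. A difference between the fasted mice of 3 h and the fed mice of 24 h was not detected at these peaks (adjusted p = 0.813, 0.989 and 0.948), with log2 differences of -0.09 ± 0.19, -0.01 ± 0.35 and -0.03 ± 0.21.

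Other peaks set the fasted mice of 3 h apart from both fed groups. Cyp4a14 at 11608 bp averaged 36.0 ± 18 reads in fasted mice, against 0.699 ± 0.970 in fed mice at 3 h and 0.845 ± 0.612 in fed mice at 24 h. Plin4 averaged 134 ± 23.3 in fasted mice, against 24.9 ± 3.44 and 32.7 ± 9.55, and Pdk4 126 ± 31.4, against 40.7 ± 4.59 and 45.8 ± 6.92. Cyp7a1 at 10809 bp was low in fasted mice, with 1.75 ± 1.21, against 28.3 ± 1.77 and 31.3 ± 13.5, and so was Cebpa, with 70.5 ± 19.2, against 123 ± 14.8 and 127 ± 10.7. All 5 of these peaks differed between fasted mice at 3 h and fed mice at 24 h (adjusted p from 3.54e-07 for Pdk4 to 0.000588 for Cebpa). Angptl8 at 2591 bp averaged 2.88 ± 2.36 in fasted mice, 83.7 ± 14.4 in fed mice at 3 h and 11 ± 7.27 in fed mice at 24 h. Fasted mice of 3 h and fed mice of 24 h differed there by -1.38 ± 0.43 on the log2 scale (adjusted p = 0.0397). At G0s2, an inhibitor of the lipase of Pnpla2, the means were 17.3 ± 8.15, 74.8 ± 25.9 and 10.7 ± 3.37. A difference between fasted mice of 3 h and fed mice of 24 h was not detected at G0s2 (0.51 ± 0.40, adjusted p = 0.464). The Mt2 peak at -138 bp was highest in fasted mice, with 85.7 ± 17.5, against 3.35 ± 2.06 in fed mice at 3 h and 20.6 ± 18.9 in fed mice at 24 h. Fasted mice of 3 h and fed mice of 24 h differed at Mt2 by 2.23 ± 0.40 on the log2 scale (adjusted p = 0.000501). The summed tRNA reads were 10710 ± 1177 in fasted mice, 15068 ± 876 in fed mice at 3 h and 12022 ± 820 in fed mice at 24 h. Of the 230 tRNA peaks 53 were lower and 1 higher in fasted mice at 3 h than in fed mice at 24 h, with a median of -0.17. In fed mice at 3 h 28 of them were higher and 0 lower than in fed mice at 24 h, with a median of 0.33. Beside fed mice at 24 h, the tRNA level at 3 h was thus lower in fasted and higher in fed mice. Since the hour of day differs too, these values do not split the gap into a part of fasting and a part of feeding.

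The effect of 3 h was set against that of longer fasts. All fasts began at ZT12, so that length of fast and hour of day cannot be told apart in these differences. The change at 3 h was above the mean change of 8, 16 and 24 h at 3006 peaks (6.42%) and below it at 5091 (10.9%), with a median difference of -0.104; after each library was centred on its median these counts were 3429 and 3217, and no surplus of lower values remained. Against 8 h alone 474 peaks were above (1.01%) and 710 below (1.52%), or 618 and 491 after centring. Against 24 h alone 2586 were above (5.52%) and 5111 below (10.9%), with a median difference of -0.134, or 2896 and 3413 after centring. Without fed mouse 2 of 3 h the lower counts were 3164 against the mean and 3211 against 24 h, and without fasted mouse 4 the first was 3384. Against 8 h the counts were 266 and 373 without fed mouse 1, 283 higher without fed mouse 2, 283 and 432 without fasted mouse 2, and 280 and 465 without fasted mouse 3. Among the peaks opened at 3 h, chosen on that value, the median log2 change was 0.70 at 3 h, 0.58 at 8 h, 0.19 at 16 h and 0.31 at 24 h. Among those closed it was -0.71, -0.59, -0.24 and -0.31 at the same times.

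Some of these peaks had called changes of opposite sign at different times. Chac1 at 4547 bp was higher in fasted mice by 2.52 ± 0.24 at 3 h and 1.28 at 8 h while its log2 change was -1.05 at 16 h and -0.72 at 24 h (difference from the mean of the later times 2.68 ± 0.28, adjusted p = 5.51e-07). A peak in an intron of Celf2, an RNA-binding protein gene, had 2.39, 0.88, -1.04 and -0.45 (difference 2.59 ± 0.33), and one at -36218 bp from Alb, the albumin gene, 3.07, 1.34, -1.45 and 1.02 (difference 2.77 ± 0.57, adjusted p = 0.00132). Ppp1r3g at -7815 bp had 3.12, 1.56, -0.75 and 0.27 (difference 2.76 ± 0.53). Fchsd2 at -22826 bp had 3.06 at 3 h and a peak named for Map7, in an intron of the kinase gene Map3k5, 1.88, with differences of 2.52 and 2.42 ± 0.39. At 3 h no fasted mouse overlapped a fed mouse in these 6 peaks.

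On the closed side Angptl8 at 2591 bp had -4.23 at 3 h, -2.84 at 8 h, -0.56 at 16 h and -0.55 at 24 h (difference -2.91 ± 0.50, adjusted p = 0.000219), and Dus1l -3.53, -1.96, -1.14 and -0.43. G0s2 closed by -2.05 ± 0.40 at 3 h, with 25.3, 21.5, 6.55 and 15.8 reads in fasted and 42.4, 102, 67.2 and 87.8 in fed mice, and was higher in fasted mice by 1.30 at 16 h (difference -2.70 ± 0.46). Slc35b1, a transporter of the endoplasmic reticulum, had -2.40 at 3 h and -0.54, -0.02 and 0.50 later (difference -2.38). A peak named for Vmn1r184 that has Cyp2b9 within 20 kb closed by -2.58 (difference -2.37). Cbfa2t3, a corepressor gene, was not called at 3 h (-0.60 ± 0.31, adjusted p = 0.169) and was higher in fasted mice by 2.46, 2.66 and 1.24 at 8, 16 and 24 h (difference -2.72 ± 0.35, adjusted p = 6.24e-06). The tRNA peaks had medians of -0.49, -0.25, -0.20 and 0.17 at 3, 8, 16 and 24 h, and at 70 of the 230 the change at 3 h was below the mean of the later ones, a share of 30.4% beside 10.9% of all peaks. Their summed reads averaged 13182 ± 1414 in fasted and 15435 ± 749 in fed mice at 8 h, 12878 ± 1884 and 13635 ± 1225 at 16 h, and 13562 ± 545 and 12022 ± 820 at 24 h (SD, n = 4 each), so that the order of the means at 24 h was the reverse of that at 3 h.

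**Figure D5:**
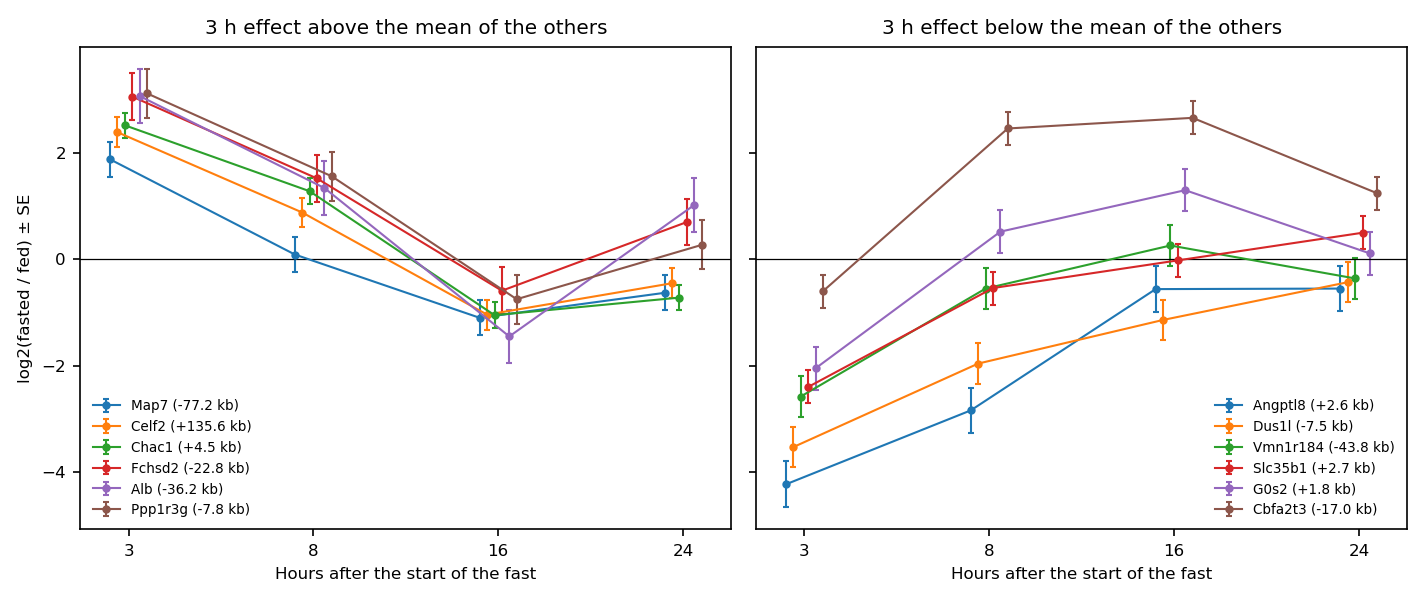
Log2 change of fasted over fed mice ± SE at 3, 8, 16 and 24 h (n = 4 mice per group and time) for the 6 peaks whose 3 h change lay farthest above the mean of the later changes (left) and the 6 farthest below (right), named by nearest gene and distance to its TSS in kb. Chac1 stands at 2.52 at 3 h and at -0.72 at 24 h, and G0s2 at -2.05 at 3 h and at 1.30 at 16 h.

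Macrophage nuclei of the liver were profiled at the same times in other mice and deposited as a table normalized apart, so that no test was run between the cell types. Of 30170 macrophage peaks 506 opened (1.68%) and 42 closed (0.139%) after 3 h; without 1 mouse the closed count was 18 to 24 for fed mouse 1, 3 or 4 and fasted mouse 3 or 4, and the opened count 327 without fed mouse 1 and 295 without fasted mouse 4. A macrophage peak overlapped 932 of the hepatocyte peaks that opened (17.6%) and 570 of those that closed (11.8%), and 12694 of the 36691 that were not called (34.6%). Of these overlapping macrophage peaks 95 were themselves opened beside the 932 and 11 closed beside the 570, with medians of 0.14 and -0.10.

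Among sites opened in both cell types, those of largest change lay near Fkbp5, Ddit4 and Klf9, all known to answer to glucocorticoids. The peak in the Fkbp5 intron held 102, 62.6, 109 and 129 reads in fasted and 14.6, 19.7, 14.1 and 22.8 in fed macrophage nuclei (log2 change 2.35 ± 0.24, adjusted p = 3.15e-10). A peak at -18478 bp from Ddit4 opened by 2.45 ± 0.25 in macrophage and 2.48 ± 0.45 in hepatocyte nuclei, one at -84170 bp from Klf9 by 1.68 ± 0.15 and 1.71 ± 0.28, and one at -7661 bp from Armc12, a neighbour of Fkbp5, by 1.5 ± 0.18 and 1.65 ± 0.20. Pnpla2 (0.89 ± 0.12) and Klf13 (0.69 ± 0.12) were opened in macrophage nuclei too. Closed in both were peaks named for Igf1 (-0.76 ± 0.14 in macrophage and -1.22 ± 0.29 in hepatocyte nuclei, where 1 fasted mouse overlapped the fed range), Bbc3 (-0.59 and -1.19) and Hes7 (-0.72 and -1.10). The peak named for Hes7 lies -9514 bp from its TSS, at the tRNA gene n-TScga3. Fbrsl1 (-0.59 and -0.52) was closed in both too, but its hepatocyte call (adjusted p = 0.04) was lost in 7 alternative settings, with adjusted p of up to 0.176. Not called in macrophage nuclei were the peaks of Angptl4, a secreted lipase inhibitor (-0.09 ± 0.18, adjusted p = 0.95), Nr4a1 (0.11 ± 0.15, adjusted p = 0.908), Flcn (0.16 ± 0.14, adjusted p = 0.811), Nr1d1 (-0.03 ± 0.10, adjusted p = 0.979) and Mt1 (0.37 ± 0.13, adjusted p = 0.156). Of 169 macrophage peaks within 200 bp of a tRNA gene 1 closed, with a median of -0.05, and 16 were lower and 2 higher at an unadjusted p under 0.05.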

How the data were processed

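ATAC-seq was done on hepatocyte nuclei of HEP-INTACT mice and macrophage nuclei of MAC-INTACT mice captured on beads. Per the submitters' processing notes the authors worked with mm10 and the tools DESeq2, HOMER, SAMtools and BWA 0.7.5a-r405, with no role or setting given. For each cell type the authors deposited a table of signal per peak and mouse, a normalized read count, beside the gene of the closest TSS. In the hepatocyte columns the deposited signal values are whole multiples of 1 step within 0.01 of a read, from which depths were taken. The count tests with edgeR and DESeq2 used reads recovered in 30 of the 32 columns. The authors also deposited log2 fold changes and adjusted p-values, used here only to count shared calls.

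Groups were taken from the labels, with each mouse a replicate. limma 3.58.1 in R 4.3.3 was fitted to log2 of the value plus 2 with a variance trend and 8 group means over the 32 hepatocyte libraries, for peaks with a mean of at least 10, which left out 5. The 3 h change, its difference from the other times and from fed mice at 24 h, and the macrophage change were adjusted by Benjamini-Hochberg over all tested peaks at 0.05. The members and all lists were chosen with earlier results of these data known. With 1 peak per nearest gene and predicted genes passed over, the named peaks are the 10 largest opened and closed without overlap of the groups, the 6 largest of each within 1 kb of a TSS, up to 3 per gene list, the genes with most called peaks, the 6 largest differences between times of each sign and the 4 of each sign called in both cell types; tRNA and snRNA peaks were added after seeing their values. Lists are described by counts without a test. The fit was tested on simulated data. Alternatives were edgeR 4.0.16, DESeq2 1.42.0, other offsets, filters and scalings, a library set block, and each mouse left out. Among the 8 hepatocyte libraries of 3 h no pair held equal reads in more than 3.01% of peaks, so that none of them was a copy of another.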

Additional observations from a re-analysis of the deposited data

Results flagged for a closer look

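Among 230 groups of 4 values at the 113 named peaks, 6 held a mouse that stood far from the other 3 of its group, and chance alone sets apart about 1 group in 20. These were a fasted mouse with 10.3 reads at Trim7 (tRNA n-TGacc1), a fasted mouse with 173 at Pdk4, a fasted mouse with 26.5 at the Alb peak, a fed mouse with 18.9 at Klf10, a fed mouse with 8.23 at Cyp4a32 and a fed mouse with 98.2 at Bbc3.

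Of the named peaks, 12 were taken as the largest differences between the change at 3 h and the mean change at 8, 16 and 24 h. Only peaks that passed the limma test of the difference could be taken, so that 12 is not a count of peaks that differ. Over all tested peaks 3006 were above and 5091 below by that test. The log2 difference was 2.68 at Chac1, 2.59 at Celf2, 2.52 at Fchsd2, 2.77 at Alb, 2.76 at Ppp1r3g and 2.42 at Map7. It was -2.91 at Angptl8, -2.35 at Dus1l, -2.70 at G0s2, -2.38 at Slc35b1, -2.37 at Vmn1r184 and -2.72 at Cbfa2t3.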

How the results depend on the processing

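The counts at 3 h were 5696 opened and 4704 closed with edgeR and 5344 and 4847 with DESeq2, both on 30 libraries. They were 6737 and 6218 in the 3 h libraries alone, 5087 and 5178 after median centring and 5310 and 4905 with the library set block. With a minimum mean of 30, 3213 peaks closed. At 2-fold or more 1253 opened and 1093 closed, 55 of them at tRNA genes, and with promoter peaks alone 1336 opened and 593 closed, 17 of them at tRNA genes. After centring, 3217 peaks had a 3 h change below the mean of the later ones. Leaving out a mouse gave 3755 to 5490 opened, 3648 to 4587 closed and 102 to 120 closed tRNA peaks. For the 3 h change against the mean of later ones it gave 2186 to 2793 above and 3164 to 5540 below, the lowest without fed mouse 2, and 3384 without fasted mouse 4. Against 8 h it gave 266 to 540 and 373 to 880, with under 300 above without fed mouse 1, fed mouse 2, fasted mouse 2 or fasted mouse 3. Against 24 h it gave 1845 to 2551 and 3211 to 5524, the lowest without fed mouse 2. For fed mice at 3 h against 24 h it gave 556 to 1126 and 929 to 1510, lowest without fed mouse 1, 2 or 4. For fasted mice at 3 h against fed at 24 h it gave 672 to 2640 and 1008 to 2425, the lowest without fasted mouse 1 and next lowest without fasted mouse 3. In macrophage nuclei it gave 295 to 510 and 18 to 40. The cause of these shifts was not tested. Of 125 named values none reversed; Fbrsl1 was no longer called in 7 settings and Cbfa2t3 was called (-0.60) in the 3 h libraries alone. No paired analysis was possible because the replicate numbers are not given by the labels and do not link fasted with fed mice. Sites with few reads in the fed mice limit the precision of the largest folds.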
